A study of Homo sapiens with 2 samples.

Results

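The genes described here encode the proteasome, the protease that degrades ubiquitin-tagged proteins, together with its activators and assembly factors. Members were all probe sets paired with a single gene whose symbol began with PSM, a letter from A to G and a digit. This gave 97 probe sets and 50 names among 41091 such probe sets and 19775 genes. Of the 50 names, 42 were numbered proteasome genes with 81 probe sets, namely 7 PSMA, 10 PSMB, 5 PSMC, 12 PSMD, 3 PSME, 1 PSMF and 4 PSMG genes. The other 8 names, with 16 probe sets, belonged to antisense or divergent transcripts and to 2 protein-coding genes that are not proteasome subunits, and they are given apart. A further 5 probe sets paired a PSM gene with a second gene and were left out, and PSMA6, PSMB11, PSMC5, PSMD7, PSMD13 and PSME2 were not analysed here. The study exposed PC-3 cells, an androgen-independent line of human prostate cancer cells, to Riccardin D (RD), a macrocyclic bisbibenzyl from a liverwort, for 24 h. Control cells were given the DMSO vehicle according to the treatment protocol, although their source label reads as untreated, and the sample labels give no dose. Total RNA of each condition was hybridised to 1 Affymetrix HG-U133 Plus 2.0 array. The comparison asks how the transcripts of the proteasome differed between RD-treated and control cells.

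A proteasome is built from a barrel, the 20S core, and a cap, the 19S regulatory particle. Rings of alpha subunits (PSMA) gate the barrel, and rings of beta subunits (PSMB) line its chamber and carry the proteolytic sites. The cap holds a ring of ATPases (PSMC) that unfolds the substrate, and non-ATPase subunits (PSMD) that bind ubiquitin chains and remove them. PSME proteins are alternative caps, and PSMG proteins are chaperones of core assembly. Interferon replaces 3 of the beta subunits by inducible forms, which gives the immunoproteasome. When proteasome activity is short, the transcription factor NFE2L1 (NRF1) raises the constitutive genes together through antioxidant response elements.

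The deposited values were MAS5 signals on a linear scale. Signals of 66.9 or more, the median over both arrays (here the floor), were treated as measured, and those of 377.4 or more, the 75th percentile, as bright. The limit for calling a gene higher or lower was a 2-fold difference with at least one signal at the floor, and each gene was represented by its brightest probe set. Precision is limited by there being 1 array per condition, which allows no test of the treatment. The only measurable error was how far the probe sets of one gene scattered in their log2 differences. The SD of this scatter was 0.76 over 18518 probe sets at the floor and 0.34 over 8576 whose higher signal was bright. For PSM genes it was 0.98 over 54 and 0.38 over 35 such probe sets. The 35 include a PSME3 probe set with 144.4 in RD-treated and 464.4 in control cells. This scatter leaves out differences between cultures. RNA came from whole cultures and signals are relative to each array's mean, so neither fewer cells nor less RNA per cell would show in them. A ratio compares shares of the total signal and not amounts per cell. The trimmed mean signal was 495.9 on the RD array and 495.8 on the control array. Of the epithelial markers of the line, KRT18 had signals of 15416.6 in RD-treated cells and 10224.2 in control cells, KRT8 had 159.3 in RD-treated and 113.8 in control cells, and KRT19 and EPCAM were under the floor on both arrays. The androgen-regulated genes KLK2 and TMPRSS2 were under the floor on both arrays, while KLK3 had signals of 230.6 in RD-treated and 131.4 in control cells.

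Proteasome genes stood at slightly lower signals in RD-treated cells, and few differed by much. Of the 42 genes, 41 reached the floor and 40 were bright on both arrays. The exception under the floor was PSMA8, an alpha subunit known from testis, with signals of 24.7 in RD-treated cells and 2 in control cells, and no fold is given for it. Over the 41 genes the median log2 difference (RD minus control) was -0.22, which is a ratio of 0.857, against -0.0022 over all 12818 genes at the floor. A lower signal in RD-treated cells was found for 33 genes and a higher one for 8. None of the 41 was at least 2-fold higher, where 12.1% of all genes at the floor were, and 2 were at least 2-fold lower, where 13.3% of all genes were. Among bright genes the background was 7.96% higher and 8.45% lower by that size. Of the 40 bright PSM genes, 32 had a lower signal by any size, against 49.6% of the 7050 bright genes. By at least 1.5-fold, 9 of the 40 were lower and 1 was higher, where 20.6% and 18.8% of bright genes were. The share past 1.5-fold downwards was thus close to the background, while the direction of small differences was mostly downwards. The middle of the 41 log2 differences, from the 25th to the 75th percentile, ran from -0.58 to -0.02, compared with -0.46 to 0.44 over bright genes.

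**Figure D1:**
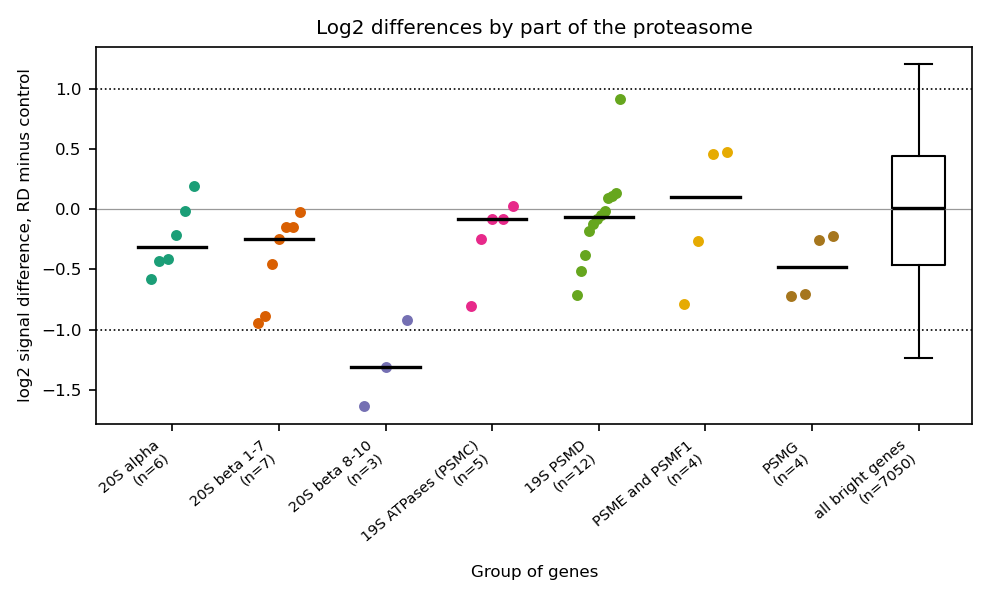
Log2 difference in MAS5 signal (RD minus control, vertical) of each PSM gene at the floor, by group, with the number of genes in brackets. Bars are medians, dotted lines mark 2-fold, and the box on the right shows the quartiles of all 7050 bright genes with whiskers at the 5th and 95th percentiles. PSMB9 and PSMB10 are the lowest points, the group of PSMB8 to PSMB10 has the lowest median at -1.31, and PSMD12 is the highest point at 0.91.

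The alpha ring genes were near or a little below the control level. All 6 at the floor were under 1.5-fold, 5 with a lower and 1 with a higher signal, and the median log2 difference was -0.31. PSMA4 was the lowest, with signals of 10258.9 in RD-treated cells and 15351.1 in control cells (ratio 0.668). PSMA7 stood at 0.743 and PSMA2 at 0.751 of control. PSMA1 was the highest, with 23925.4 in RD-treated and 20925.6 in control cells (ratio 1.14), and its 3 probe sets lay between 0.03 and 0.19 on the log2 scale. PSMA5 had 15033.6 in RD-treated cells and 15203.4 in control cells, a difference far inside the scatter between probe sets. For PSMA2 the second bright probe set was lower than the first, at 644.7 in RD-treated and 1659.9 in control cells (log2 difference -1.36), so the size of its difference depends on the probe set.

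By their brightest probe sets all 7 constitutive beta genes had lower signals in RD-treated cells, with a median log2 difference of -0.25. The catalytic subunits differed among themselves. PSMB6, which carries the caspase-like site, had signals of 7574.2 in RD-treated cells and 14547.7 in control cells, 1.92-fold lower and just short of the 2-fold limit. PSMB5, which carries the chymotrypsin-like site and is the main target of proteasome-inhibiting drugs, had 8593.4 in RD-treated and 11786.1 in control cells (ratio 0.729). PSMB7, which carries the trypsin-like site, had 19064.7 in RD-treated and 19337.1 in control cells (ratio 0.986), a difference that turned to 0.0013 on the log2 scale after quantile normalization. These 3 subunits work in one ring, yet the log2 difference of PSMB6 was -0.94 and that of PSMB7 -0.02. Among the structural beta genes PSMB3 was 1.84-fold lower, with 10017.1 in RD-treated and 18471.5 in control cells. PSMB1, PSMB2 and PSMB4 stood at 0.843, 0.903 and 0.903 of control. The direction of PSMB2 was not settled, since its second bright probe set had 581.8 in RD-treated and 444.9 in control cells (log2 difference 0.39). Another bright probe set of PSMB4 stood lower than the others, at 0.583 of control.

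The inducible beta genes of the immunoproteasome had the lowest median log2 difference of the groups. PSMB9, which takes the place of PSMB6, had signals of 94.9 in RD-treated cells and 295.2 in control cells, 3.11-fold lower. PSMB10, which takes the place of PSMB7, had 741.4 in RD-treated and 1842.3 in control cells, 2.48-fold lower. PSMB8, which takes the place of PSMB5, had 536.7 in RD-treated and 1014.4 in control cells, 1.89-fold lower. Each of the 3 was further below control than the constitutive subunit it replaces, with ratios of 0.321 against 0.521, 0.402 against 0.986 and 0.529 against 0.729. Each gene was read by 1 probe set, and PSMB9 was not bright on either array, where the scatter between probe sets was wider. The gap of PSMB9 to PSMB6 (-1.64 against -0.94 on the log2 scale) was smaller than the scatter SD of 0.76. That of PSMB8 to PSMB5 (-0.92 against -0.46) was not far above the SD of 0.34 for bright probe sets. The median of the 3 inducible genes was -1.31, and the median over the other 38 PSM genes was -0.20. PSME1, the alpha chain of the PA28 cap that interferon also induces, had 1812.8 in RD-treated and 3134.1 in control cells, 1.73-fold lower.

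The promoters of these 4 genes are shown because interferon response elements are known in promoters of immunoproteasome genes. Each window runs from 250 bases before to 50 after a RefSeq start of GRCh38.p14, is written on the strand of the gene, and has in capitals each match, on either strand, to the interferon response element (GAAA, any 2 bases, GAAA), the core of the antioxidant response element (TGACNNNGC) or the NF-Y box (CCAAT). PSMB9, PSMB10 and PSMB8 belong to the genes chosen by size or catalytic role, and PSME1 was added after its values were seen. PSMB5, also a catalytic gene with RefSeq windows, is not shown, and its windows had no match to the interferon response element.
PSMB10 (chr16:67936801-67937100, minus strand): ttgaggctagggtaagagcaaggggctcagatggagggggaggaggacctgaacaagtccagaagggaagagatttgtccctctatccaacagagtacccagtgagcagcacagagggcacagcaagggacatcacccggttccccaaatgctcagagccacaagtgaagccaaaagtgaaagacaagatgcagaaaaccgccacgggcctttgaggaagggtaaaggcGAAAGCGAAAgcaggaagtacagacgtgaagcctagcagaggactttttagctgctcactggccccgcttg
PSMB8 (chr6:32843998-32844297, minus strand): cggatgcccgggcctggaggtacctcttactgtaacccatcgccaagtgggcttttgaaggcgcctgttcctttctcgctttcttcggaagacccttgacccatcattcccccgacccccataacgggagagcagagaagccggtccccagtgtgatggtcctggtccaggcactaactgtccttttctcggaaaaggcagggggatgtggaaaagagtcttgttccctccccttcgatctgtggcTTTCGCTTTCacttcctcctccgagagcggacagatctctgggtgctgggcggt
PSME1 (chr14:24135944-24136243, plus strand): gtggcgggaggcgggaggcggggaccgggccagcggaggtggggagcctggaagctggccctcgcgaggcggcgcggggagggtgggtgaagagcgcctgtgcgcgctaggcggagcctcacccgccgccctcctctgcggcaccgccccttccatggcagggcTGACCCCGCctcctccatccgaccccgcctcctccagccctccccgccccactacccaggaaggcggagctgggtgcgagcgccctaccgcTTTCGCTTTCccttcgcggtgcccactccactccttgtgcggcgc
PSMB9 (chr6:32853942-32854241, plus strand): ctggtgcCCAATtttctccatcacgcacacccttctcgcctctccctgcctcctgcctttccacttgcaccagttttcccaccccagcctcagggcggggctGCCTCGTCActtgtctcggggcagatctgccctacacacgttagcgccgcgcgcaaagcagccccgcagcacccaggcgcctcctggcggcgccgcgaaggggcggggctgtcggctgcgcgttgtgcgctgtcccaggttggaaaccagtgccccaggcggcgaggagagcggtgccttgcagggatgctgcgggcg
Counted from the start site, the letters GAAAGCGAAA begin at -21 in PSMB10, and their reverse complement TTTCGCTTTC begins at -4 in PSMB8 and at 6 in PSME1. The PSMB9 window had no match to this motif, and the second RefSeq window of PSMB8 had none of the 3 motifs. A RefSeq window was found for 36 of the 42 PSM genes, 43 windows in all. The interferon motif was in 6 of the 43 (14%) and in 3.57% of all 35116 windows. The other PSM genes with it were PSMA4, PSMB4 and PSMG4, with log2 differences of -0.58, -0.15 and -0.71. A match is a stretch of letters and not a shown binding site.

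The ATPase ring of the cap showed small differences apart from 1 member by the brightest probe sets. The median log2 difference of the 5 PSMC genes was -0.08. PSMC3 had signals of 6780.4 in RD-treated cells and 11865 in control cells, 1.75-fold lower. PSMC4 was the highest, with 4826.5 in RD-treated and 4753 in control cells (ratio 1.02), a difference whose sign turned to -0.02 when each array was centred on its median. PSMC1, PSMC2 and PSMC6 stood at 0.840, 0.944 and 0.945 of control. The other bright probe sets of PSMC2 were lower, at 0.770 and 0.675 of control, and the PSMC median was -0.25 when a gene's probe sets were summarised by their median.

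The PSMD genes were spread around the control level, with a median log2 difference of -0.06 over 12 genes, 8 lower and 4 higher. The scaffold subunit PSMD2, which docks ubiquitin shuttles, had 5027.1 in RD-treated and 7175.4 in control cells (ratio 0.701). The other large scaffold of the base, PSMD1, stood at 0.916, and at 0.781 by its second bright probe set. PSMD4, a receptor for ubiquitin chains, had 10469.2 in RD-treated and 10831.3 in control cells (ratio 0.967). Its other bright probe sets stood at 0.907 and 1.07 of control, so its direction was not settled. PSMD14, the metalloprotease that cuts ubiquitin chains off the substrate, had 14384 in RD-treated and 13127.8 in control cells (ratio 1.10). The 6 lid genes at the floor had a median of 0.04, with PSMD8 lowest at 0.767 of control. Of the chaperones of base assembly, PSMD10 (gankyrin) was 1.64-fold lower, with 3122 in RD-treated and 5106.1 in control cells. PSMD5 and PSMD9 stood at 0.883 and 1.08 of control, while a dim second probe set of PSMD9 stood at 0.618.

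The lid scaffold gene PSMD12 had the highest log2 difference of all 41. Its signals were 9322 in RD-treated cells and 4954.8 in control cells, 1.88-fold higher by the brightest probe set. Its second bright probe set had 2462.4 in RD-treated and 2111.8 in control cells (log2 difference 0.22), so both lay above control by unequal amounts. The promoter of PSMD12 is shown as that of the member with the highest difference.
PSMD12 (chr17:67366528-67366827, minus strand): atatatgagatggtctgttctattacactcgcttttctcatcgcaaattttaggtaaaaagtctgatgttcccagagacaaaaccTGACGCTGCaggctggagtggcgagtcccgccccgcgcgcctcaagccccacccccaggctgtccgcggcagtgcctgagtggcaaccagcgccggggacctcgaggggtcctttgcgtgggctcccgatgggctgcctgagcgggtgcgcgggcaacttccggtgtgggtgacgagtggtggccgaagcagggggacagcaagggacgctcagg
The capitals TGACGCTGC, which begin at -165, match the core of the antioxidant response element, whose first letters are also those of AP-1 and CREB sites. This motif was in 13 of the 43 PSM windows (30.2%) and in 13.3% of all windows. Genes with it had values at both ends, among them PSME4 and PSMD12 above control and PSMB3, PSME1 and PSMB9 below. The NF-Y box was in 39.5% of PSM windows and 34.6% of all windows.

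**Figure D2:**
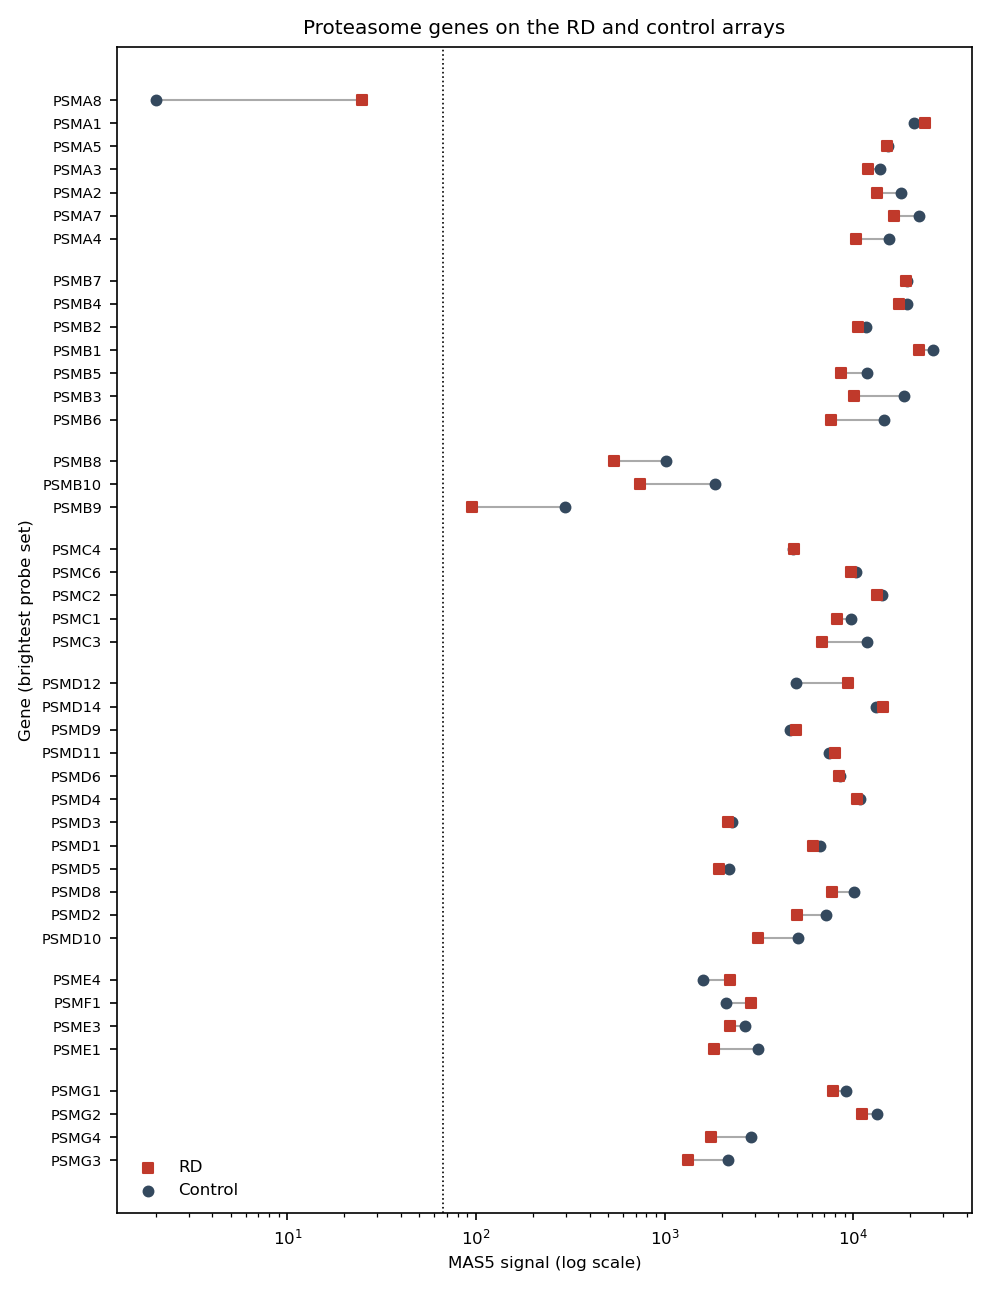
MAS5 signal (horizontal, log scale) of the brightest probe set of each of the 42 PSM genes on the RD array (squares) and the control array (circles), joined by a line and ordered within each group by log2 difference. The dotted line is the floor of 66.9, and PSMA8 lies under it on both arrays. Squares lie left of circles for 33 of the 41 genes at the floor, by the widest gap for PSMB9.

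The alternative caps and the regulator PSMF1 went both ways, with a median log2 difference of 0.10 that turned to -0.03 when a gene's probe sets were summarised by their median. PSME4 (PA200), a cap of nuclear proteasomes, had 2223.7 in RD-treated and 1600.9 in control cells (ratio 1.39), and all 3 of its probe sets had log2 differences between 0.35 and 0.51. PSME3 (PA28 gamma), also nuclear, had 2208.2 in RD-treated and 2646.9 in control cells (ratio 0.834). Its other bright probe sets stood at 0.774 and 0.736 of control, while a dim one had 144.4 in RD-treated and 464.4 in control cells. PSMF1 (PI31), a binding partner that inhibits the core in vitro, had 2877 in RD-treated and 2099.5 in control cells (ratio 1.37) by its brightest probe set, but 1932.5 in RD-treated and 2415.3 in control cells by its second, so its direction was not settled.

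All 4 core assembly chaperones had lower signals in RD-treated cells, with a median log2 difference of -0.48. The proteins act as 2 heterodimers, and the partners had like values. PSMG1 had 7809.1 in RD-treated and 9115.9 in control cells (log2 difference -0.22), and its partner PSMG2 had 11132.3 in RD-treated and 13292.9 in control cells (-0.26). PSMG3 had 1321.1 in RD-treated and 2175 in control cells (-0.72), and its partner PSMG4 had 1753.1 in RD-treated and 2864.2 in control cells (-0.71). Of the dim probe sets of PSMG4, a pair that reached the floor had the other direction, at 97.6 and 87.5 in RD-treated cells against 54.4 and 44.3 in control cells, and the others were under the floor on both arrays. POMP, the maturation factor that completes the core with the beta rings, is not named PSM and had 11614.2 in RD-treated and 17346.5 in control cells (ratio 0.670), though its other probe set had a log2 difference of 0.31.

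Among the other names caught by the symbol, none reached 2-fold at its brightest probe set and at the floor. PSMC3IP, a partner of the meiotic recombinase machinery, had 570.4 in RD-treated and 945.7 in control cells (ratio 0.603), and its other bright probe set stood at 0.837. PSME3IP1, which binds PA28 gamma, stood at 0.965 of control by its brightest probe set. Its other probe sets were lower, at 0.801, 0.811 and 0.511 of control. The antisense transcript PSMA3-AS1 had 810.4 in RD-treated and 521.5 in control cells (ratio 1.55), and its 3 probe sets ranged from 0.63 to 0.89 on the log2 scale, while PSMA3 itself stood at 0.861. PSMD6-AS2 and PSMG3-AS1 stood at 1.31 and 1.02 of control. PSMB8-AS1 had 56.1, under the floor, in RD-treated cells and 83 in control cells, and PSMD7-DT and PSMD14-DT were under the floor on both arrays.

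The probe sets of one gene gave like values mostly where they were bright. Of 59 PSM probe sets bright on both arrays, none was 2-fold higher, 2 were 2-fold lower (those of PSMB10 and the second of PSMA2) and 45 had a lower signal. Over all 11042 bright probe sets paired with 1 gene, 8.31% were 2-fold higher and 7.97% were 2-fold lower. In the 14 genes with at least 2 such probe sets, the log2 differences within a gene spanned less than 0.5 in 9 and less than 1 in all 14, with a median span of 0.23. Of 16 probe sets at the floor but not bright on both arrays, 4 were 2-fold higher and 2, of PSMB9 and PSME3, were 2-fold lower, beside 17.5% and 17.3% of all 13892 such probe sets. The 4 belonged to PSMA3, PSMB1, PSMB2 and PSMB7, whose brightest probe sets stood at 0.861, 0.843, 0.903 and 0.986 of control. The dim probe set of PSMB7 had 298.9 in RD-treated and 36.3 in control cells, at least 4.47-fold higher against the floor, and the other 3 had RD signals between 71.8 and 81.2, at most 1.21-fold above the floor.

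**Figure D3:**
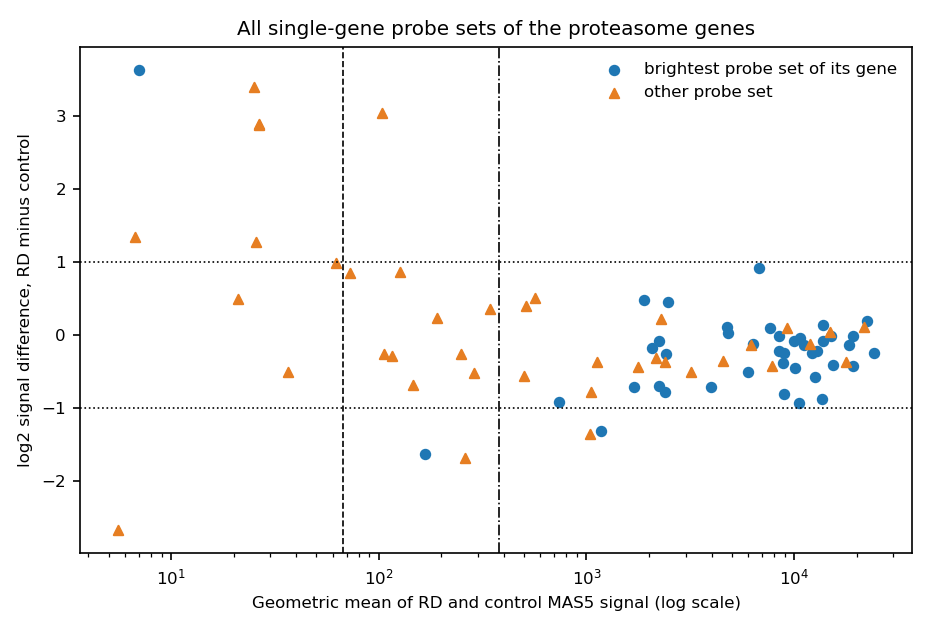
Log2 difference (RD minus control, vertical) of all 81 PSM probe sets against the geometric mean of both MAS5 signals (horizontal, log scale). Circles are the brightest probe set of each gene and triangles the others, the dashed line is the floor, the dash-dotted line the 75th percentile, and dotted lines mark 2-fold. Differences past 2-fold upwards occur only where the mean signal is under that percentile.

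The related genes outside the PSM names were compared by the same rule. Of 17 proteasome partners at the floor, 11 had a higher and 6 a lower signal in RD-treated cells. The median log2 difference was 0.31. At least 2-fold, 3 were higher and none was lower, beside 12.1% and 13.3% of all genes at the floor. All 17 were bright on both arrays, and among bright genes the shares were 7.96% and 8.45%. ZFAND5, a zinc finger protein that binds and stimulates the proteasome, had 7462.2 in RD-treated and 2987.6 in control cells, 2.50-fold higher, though the brightest of its probe sets without a shared-sequence suffix had a log2 difference of 0.31. AKIRIN2, needed for import of proteasomes into the nucleus, had 1519.1 in RD-treated and 710.8 in control cells, 2.14-fold higher. ECPAS (ECM29), a scaffold of the whole complex, had 5639.7 in RD-treated and 2652.7 in control cells, 2.13-fold higher, and 0.63 on the log2 scale by the median of its 4 probe sets. The cap subunits without a PSM name differed, as ADRM1, a ubiquitin receptor, stood at 1.41 and SEM1 at 0.761 of control.

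In the list of proteasome gene control, 9 of the 11 genes at the floor had higher signals, and the median log2 difference was 0.71. It mixes transcription factors with enzymes that process them and ligase receptors that target them. The median is thus not that of the transcription factors alone. At least 2-fold, 4 were higher and 1 was lower, beside the same 12.1% and 13.3% of all genes. Among bright genes, which 9 of the 11 were, the shares were 7.96% and 8.45%. NFE2L1 itself had 3754.1 in RD-treated and 2511.9 in control cells, 1.49-fold higher. NFE2L2 (NRF2) had 13388.8 in RD-treated and 5803.6 in control cells, 2.31-fold higher. Its small MAF partners were further apart, with MAFF at 17849.6 in RD-treated and 5312.2 in control cells (3.36-fold) and MAFG at 1226.6 in RD-treated and 421.5 in control cells (2.91-fold). FBXW7, a ubiquitin ligase receptor whose targets include NFE2L1, had 473.1 in RD-treated and 128.8 in control cells, 3.67-fold higher, but 0.62 on the log2 scale by the median of its 4 probe sets. NFE2L3 was at least 2.13-fold lower against the floor, with signals of 48.4 in RD-treated and 142.2 in control cells, and its other probe set had a log2 difference of 0.67. BTRC, a ligase receptor for NFE2L1 and NFE2L2, stood at 0.963 of control. No PSM gene was 2-fold higher, and a link between the signals of this list and those of the PSM genes was not tested.

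The VCP list holds the segregase that hands ubiquitinated proteins to the proteasome and its cofactors. Of 20 members at the floor, 14 had a higher signal, and the median log2 difference was 0.41. At least 2-fold, 4 were higher and none was lower, again beside 12.1% and 13.3% of all genes. Among bright genes, which 18 of the 20 were, the shares were 7.96% and 8.45%. ZFAND2A (AIRAP), a stress-inducible proteasome cofactor, had 8238.4 in RD-treated and 1665 in control cells, 4.95-fold higher. SELENOS and DERL2, which bring VCP to the endoplasmic reticulum membrane, were 2.75-fold and 2.22-fold higher, and UBXN4 was 2.00-fold higher. DERL2 was at 0.78 on the log2 scale by the median of its probe sets, and UBXN4 was at 0.96 when each array was centred on its median. VCP itself, named for its role after its values were seen, had 7582.9 in RD-treated and 6192 in control cells (ratio 1.22). At the low end ZFAND2B stood at 0.613 and FAF1 at 0.868 of control. The ubiquitin list had only 3 measured members, with UBB at 1.08, UBA6 at 1.12 and UBA1 at 0.869 of control.

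The COP9 signalosome, a complex related in its architecture to the proteasome lid, had lower signals for 9 of 10 genes. Over all genes at the floor, 50.1% had a lower signal. The median log2 difference of the COP9 genes was -0.48, and the lid itself had 0.04. At least 2-fold, 1 of the 10 was lower and none was higher, beside 13.3% and 12.1% of all genes. Among bright genes, which 9 of the 10 were, the shares were 8.45% and 7.96%. COPS6 had 3445.6 in RD-treated and 7701 in control cells, 2.24-fold lower, COPS3 stood at 0.663, and at the other end COPS2 stood at 1.17 and COPS8 at 0.962 of control. The chaperonin CCT, another large complex of the cytosol, had a median of -0.21 over 7 genes, close to the -0.22 of the PSM genes, from CCT7 at 0.716 and CCT3 at 0.797 to CCT6A at 0.895 and CCT4 at 1.05 of control. Genes of class I antigen presentation and interferon signalling were mixed, since 7 of 12 had a higher and 5 a lower signal and the median was 0.05 (-0.12 with only probe sets without a shared-sequence suffix), set against -1.31 for PSMB8 to PSMB10. At least 2-fold, 1 of the 12 was lower, beside 13.3% of all genes at the floor and 8.45% of bright genes. This was TAPBP (tapasin), with 648.7 in RD-treated and 1852.9 in control cells, 2.86-fold lower, and TAP2 stood at 0.718 of control. TAP1, which lies next to PSMB9 and shares its promoter region, was added after its values were seen and had 585.9 in RD-treated and 536.5 in control cells (ratio 1.09), set against the ratio of 0.321 for PSMB9. IRF1, an activator of immunoproteasome genes, had 487.8 in RD-treated and 388.6 in control cells (ratio 1.26), and HLA-B stood at 1.30 of control. Of the list members, DDI1 and NLRC5 were under the floor on both arrays, and some others were not analysed here.

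**Figure D4:**
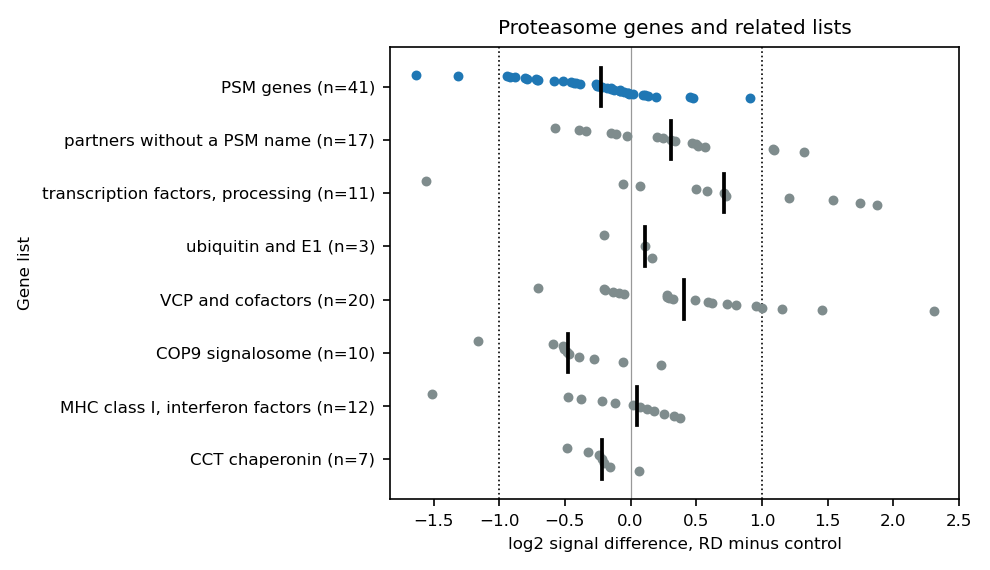
Log2 difference in MAS5 signal (RD minus control, horizontal) of each gene at the floor, for the PSM genes and 7 related lists (gene numbers in brackets). Bars are medians and dotted lines mark 2-fold. The median lies at -0.22 for PSM genes, 0.71 for the transcription factors and processing enzymes, and 0.41 for VCP and its cofactors.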

How the data were processed

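Total RNA of PC-3 cells was measured on 1 Affymetrix HG-U133 Plus 2.0 array for RD and 1 for Control. The authors deposited MAS5 signal intensity values on a linear scale, for which the submitters' processing notes name MAS5 with no version. Probe sets were named through the platform annotation, with 41091 of 54613 paired with 1 gene, 1801 with several and 11721 with none, and the symbols were checked against RefSeq (GRCh38.p14), which changed 0 of them. Genes were compared as log2 of RD minus log2 of Control with no offset. A gene counted as higher or lower at 2-fold or more when its higher signal reached the floor of 66.9. Where the lower signal was under the floor, the fold was taken against the floor and is a lower bound. Each gene was represented by the probe set with the highest mean log2 signal. The members and lists were chosen with earlier results of these data known. Any member could be named, with both signals for called members, family extremes and catalytic genes, and in each list the called genes, up to 2 at each end, and NFE2L1, NFE2L2, POMP, ADRM1 and SEM1. No replicate exists, so no test was run and no p-value is given. Promoter windows came from RefSeq, and the 3 motifs were fixed patterns of letters searched for on both strands. Promoters were shown for 4 members chosen by size of difference or catalytic role and for PSME1, added later. Only the 2-fold calls were tested on simulated data, with bright genes shifted by more than 2-fold. Smaller differences, medians and the promoter search were not tested in this way. Alternatives were the scaling, the offset, the choice of probe set, the floor and the fold limit. The software was pandas 2.3.3 and numpy 2.4.6 under Python 3.11.15, with matplotlib 3.10.9 for the plots.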

Additional observations from a re-analysis of the deposited data

How the results depend on the processing

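The median log2 difference of the PSM genes stayed between -0.26 and -0.20 over 10 settings, with -0.22 as reported and -0.20 without PSMB8, PSMB9 and PSMB10, a setting chosen after seeing the data. The group and list medians kept their sign under every setting run, except PSME with PSMF (-0.03 when a gene's probe sets were summarised by their median) and class I processing (-0.12 with only probe sets without a suffix). When each array was centred on its median or quantile normalized, the number of PSM genes with a lower signal was 34 and 30, beside 33. The split over all genes at the floor was 1434 higher and 1831 lower after centring and 1470 and 1793 after quantile normalization, beside 1551 and 1707. The count of PSM genes at least 2-fold higher, 0 as reported, was 1 when a gene's probe sets were summarised by their median (PSMB7), 1 with only probe sets without a shared-sequence suffix (PSMB1), 1 with no floor (PSMA8) and 1 at a 1.5-fold limit (PSMD12). The count at least 2-fold lower, 2 as reported, was 1 with the floor at the 75th percentile, 10 at a 1.5-fold limit, 1 at a 3-fold limit and 3 with only probe sets without a suffix, where PSMA2 stood at -1.36. The log2 difference of NFE2L3 turned to 0.67 with only probe sets without a suffix. The added calls of PSMB1 and PSMB7 came from dim probe sets, and that of PSMA8 from signals under the floor. With the floor at the 75th percentile PSMB9 was left out, since its higher signal was 295.2. The counts at 1.5-fold and 3-fold follow from the limit itself. The cause of the other shifts was not tested. Of 144 summary values under alternatives 137 were alike, and of 697 values of single genes 658 were. A median was alike when it moved by less than 0.34, the scatter SD of probe sets whose higher signal was bright. That limit is wider than the PSM median of -0.22, so a median counted as alike could change sign. A count was alike when equal or within a factor of 1.5. A called gene was alike when it stayed past 2-fold in its direction, and another gene when it moved by less than 0.34. No paired analysis was possible because each condition has 1 array. Signals under the floor limit what can be said of PSMA8, PSMD7-DT and PSMD14-DT.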
